A study of Mus musculus with 4 samples.

Results

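Splenic B cells from mice carrying the Il2rb knockout (KO), 4 days after sheep red blood cells were injected into the peritoneum, were set against B cells from unimmunized KO mice (day 0). A cell of the B library entered when it had at least 200 genes, under 10% mitochondrial counts and 1 clear hashtag. That hashtag, an antibody tag marking the source pool, needed at least 10 unique molecular identifiers (UMIs, counts of captured RNA molecules) and at least 3 times the next hashtag. The cell also needed at least 1 UMI of Cd79a, a chain of the B cell receptor, and none of Cd3e, a chain of the T cell receptor complex. This gave 1950 KO day 4 and 982 KO day 0 cells, 2932 of the 6339 barcodes of the B library and of 15646 in the whole series.

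The labels give the mice as C57BL/6NRj with a Cre allele for the B lineage and Il2rbfl/fl alleles, so that Cre acts in B lineage cells while T cells and other cells keep the gene. The labels give the same genotype text for the KO and the control mice, so genotype was taken from the names of the hashtags, KO and Cre. B cells were isolated magnetically from the spleen and loaded on the 10x single cell 5′ V2 assay, with KO day 4, KO day 0, control day 4 (1487 B cells) and control day 0 (1101 B cells) in 1 library. Each population was 1 pool, how many mice a pool held is not given in the sources used, and nothing identifies single mice. There was therefore no replicate, no test and no p-value, and every interval below is a 95% interval of counting error only, over molecules or cells that are not independent animals.

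The product of Il2rb is the beta chain of the receptors for interleukin-2 (IL-2) and interleukin-15. It pairs with the common gamma chain Il2rg, signals through the kinases JAK1 and JAK3 to the transcription factor STAT5, and the alpha chain Il2ra raises affinity for IL-2. Sheep red blood cells are a T cell-dependent antigen: B cells that bind them are activated, meet helper T cells at the border of the follicle, and go on to divide, to form germinal centers or to secrete antibody.

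Median depth was 5851 UMIs per cell at KO day 4 and 4952 at KO day 0, and the pools summed to 14285158 UMIs at KO day 4 and 5760907 UMIs at KO day 0. A gene without a count could therefore have stood at up to 0.210 CPM (counts per 1000000) at day 4 and 0.521 CPM at day 0, the level of 3 counts in the pool. Levels are summed UMIs per 1000000 of the pool's total, and a ratio is the day 4 level over the day 0 level. In such sums, fewer cells of a type and less RNA per cell cannot be told apart. Mitochondrial transcripts took a median of 3.60% of UMIs at KO day 4 and 3.40% at KO day 0. Of the KO B cell barcodes, 21 of day 4 and 13 of day 0 also occurred in the T library.

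Markers of other lineages were low in the B cells but not at 0. The summed level of 8 monocyte and macrophage markers was 71.9 CPM at KO day 4, where 39.2% of these UMIs came from 1 cell, and 101.5 CPM at KO day 0. Over 7 erythroid markers it was 922 CPM at KO day 4, with 94.9% of the UMIs in 1 cell, and 11.6 CPM at KO day 0. The 8 T cell markers summed to 3.71 CPM at KO day 4 and 2.60 CPM at KO day 0, with Cd4 and Bcl11b at 0 in both. In KO day 4, natural killer markers stood at 4.27 CPM, dendritic cell markers at 10.1 CPM and neutrophil markers at 1.19 CPM. In KO day 0 these stood at 1.22, 5.73 and 2.08 CPM.

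The targeted gene was at the limit of detection in these cells. Il2rb had 4 UMIs at KO day 4 (0.280 CPM, 0.0763 to 0.717) and 0 UMIs at KO day 0, which allows up to 0.521 CPM. In control B cells it had 11 UMIs at day 4 (0.942 CPM) and 0 at day 0, so the counts neither show nor deny the deletion in most cells. T cells with the KO hashtags in the T library had Il2rb at 103.9 CPM at day 4 and 79.0 CPM at day 0. The sources used here do not name the exons that the floxed allele removes, so a count at the 5′ end may come from a deleted allele.

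The partners of Il2rb had like levels at both days. Il2ra was at 2.03 CPM at KO day 4 (29 UMIs) and 2.08 CPM at KO day 0 (12 UMIs), each seen in under 1% of cells (0.974% at KO day 4 and 0.916% at KO day 0). Il2rg was at 369.6 CPM at KO day 4 and 377.4 CPM at KO day 0, a ratio of 0.979. The other receptors that use or resemble this chain system had intervals that include 1: Il4ra, a chain of the interleukin-4 receptor, had a ratio of 1.12, Il21r one of 1.04, Il15ra one of 1.03 and Il9r one of 0.917. Thus 3 of 5 counted IL-2 family receptors were above 1, with a median log2 ratio of 0.04, against -0.03 over all genes.

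Of 10265 genes with at least 50 UMIs over both KO pools, 407 were at least 1.5-fold higher at KO day 4 than at KO day 0 (3.96%) and 369 at least 1.5-fold lower (3.59%). Immunoglobulin variable genes made up 45 of the higher and 56 of the lower genes, and 98 of the higher genes took over 10% of their UMIs from 1 cell. Among the 407 higher genes, 247 were also 1.5-fold higher in the control pools, which is 60.7% of the KO list and 39.97% of the 618 in control. Among the 369 lower genes, 119 were also 1.5-fold lower in control, which is 32.3% of the KO list and 19.3% of the 618 in control. As background, of all 10265 genes counted, 618 were 1.5-fold higher in control and 618 were 1.5-fold lower. The overlap with control was a larger share of the higher genes than of the lower ones, and a difference between genotypes was not tested.

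**Figure D1:**
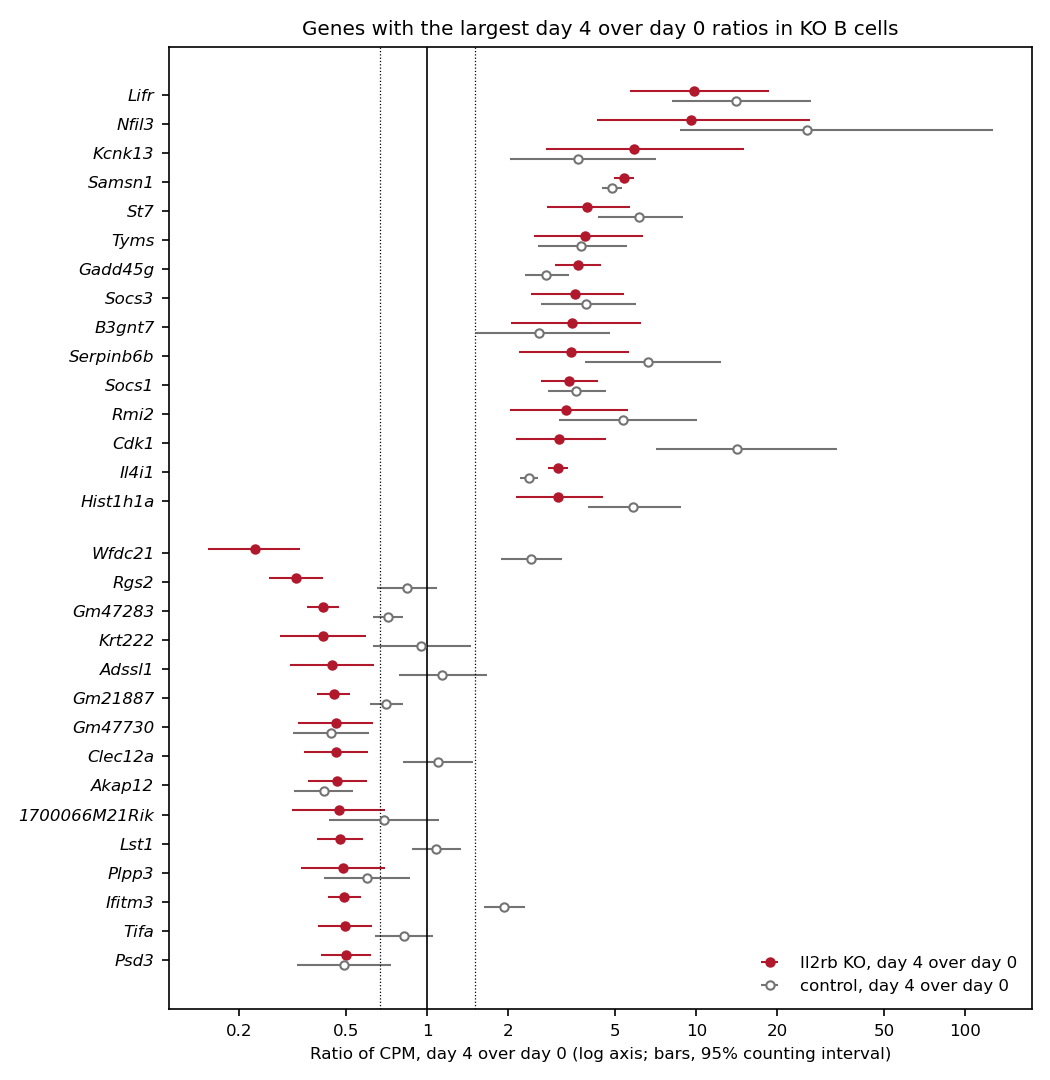
The 15 genes with the highest and the 15 with the lowest ratio of CPM, day 4 over day 0, in KO B cells (filled red) and the same genes in control B cells (open grey), on a log axis with 95% counting intervals and dotted lines at 1.5-fold. The higher genes run from 9.83 (Lifr) to 3.05 (Hist1h1a) in KO and lie right of 1 in control as well, while Wfdc21 and Ifitm3 lie left of 1 in KO and right of 1 in control, where they move to 0.337 and 0.634 once cells with markers of other lineages are left out.

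Samsn1, an adaptor that restrains B cell activation, stood at 550 CPM at KO day 4 and 102 CPM at KO day 0 (ratio 5.38, 4.95 to 5.86). Cd83, a surface marker of activated B cells that stabilizes MHC class II, stood at 423 CPM at day 4 and 140 CPM at day 0 (3.02, 2.80 to 3.25), just below the 15 highest. Il4i1, an amino acid oxidase induced by interleukin-4, stood at 344 CPM at day 4 and 113 CPM at day 0 (3.06, 2.82 to 3.32). These 3 were the abundant genes among the highest, and their intervals were narrow.

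Lifr, the receptor for leukemia inhibitory factor, had the largest ratio of the genes named by size: 22.2 CPM at KO day 4 and 2.26 CPM at KO day 0 (9.83, 5.67 to 18.7). It was found in 11.7% of day 4 cells and 1.22% of day 0 cells, or 4.50% at day 4 and 0.825% at day 0 after each cell was thinned to 2000 UMIs. All 4 pools were in 1 run, so the day 0 share includes any free Lifr RNA of that run. The ratio was 6.02 after thinning and 16.1 under the stricter hashtag filter. Its partner chain Il6st had 9.03 CPM at KO day 4 and 9.37 CPM at KO day 0 (0.963, an interval that includes 1). Lifr was higher at day 4 in the control pools as well, with a ratio of 14.0.

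Nfil3, a basic leucine zipper transcription factor, was at 9.94 CPM at KO day 4 and 1.04 CPM at KO day 0 (9.54, 4.28 to 26.4). Gadd45g, a growth arrest and stress response gene, was at 72.8 CPM at day 4 and 20.1 CPM at day 0 (3.62, 2.98 to 4.42). Kcnk13, a potassium channel, was at 7.14 CPM at day 4 and 1.22 CPM at day 0 (5.88, or 2.81 after thinning), and St7 at 25.1 CPM at day 4 and 6.42 CPM at day 0 (3.91, or 6.96 after thinning). All of these had ratios above 1 in control too, 25.8 for Nfil3, 2.77 for Gadd45g, 3.64 for Kcnk13 and 6.10 for St7. The rest of the 15 were B3gnt7 (3.45), which extends sugar chains, Serpinb6b (3.43, or 6.39 after thinning), a protease inhibitor, Rmi2 (3.27, or 1.92 after thinning), a subunit of a complex that dissolves recombination intermediates, and the division genes Tyms, Cdk1 and Hist1h1a. Hist1h1a is 1 of several related histone genes, and how reads were assigned among them was not tested.

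Socs3 and Socs1, inducible feedback inhibitors of cytokine signalling, were among the 15 highest. Socs3 was at 18.5 CPM at KO day 4 and 5.21 CPM at KO day 0 (3.55, 2.43 to 5.37). Socs1 was at 44.2 CPM at day 4 and 13.2 CPM at day 0 (3.35, 2.64 to 4.31, and 5.32 after thinning). Of the related genes, Socs4 (1.06), Socs5 (0.874), Socs6 (0.770) and Socs7 (1.23) had intervals that include 1, and Socs2 and Cish had too few UMIs to be counted. Hence 5 of 9 counted feedback inhibitors were above 1 and 2 were 1.5-fold higher. SOCS genes are known targets of STAT proteins, so the promoter windows of Socs3 and, for contrast, Samsn1 are shown, from 250 bases before to 50 bases after the RefSeq start on GRCm38.p6, each 5′ to 3′ on the minus strand, with capitals for a match to the STAT letters TTCNNNGAA.
Socs3, chr11:117969317-117969616: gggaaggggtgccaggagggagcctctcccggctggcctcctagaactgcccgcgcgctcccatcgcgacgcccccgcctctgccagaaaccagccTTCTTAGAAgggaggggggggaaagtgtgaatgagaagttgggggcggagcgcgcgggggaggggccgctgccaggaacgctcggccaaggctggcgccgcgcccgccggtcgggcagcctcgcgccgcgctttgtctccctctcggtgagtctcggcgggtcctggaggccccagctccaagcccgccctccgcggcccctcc
Samsn1, chr16:75909217-75909516: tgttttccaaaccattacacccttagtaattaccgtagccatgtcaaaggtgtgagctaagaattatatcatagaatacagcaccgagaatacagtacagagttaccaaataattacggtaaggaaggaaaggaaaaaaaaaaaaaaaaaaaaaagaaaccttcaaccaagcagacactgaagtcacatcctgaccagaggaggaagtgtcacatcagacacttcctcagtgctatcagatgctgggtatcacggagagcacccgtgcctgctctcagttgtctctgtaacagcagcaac
The letters TTCNNNGAA read the same on both strands and occurred in 8.30% of 32851 such windows. Among the 13 of the 15 highest genes with a window, 1 held them (Socs3, from base 97 of the window), 0 held the NF-kB letters, GGG, any 2 bases and TTTCC on either strand (1.63% of all windows) and 1 held the CRE letters TGACGTCA (St7, 1.79% of all windows). The window of Socs1 held no STAT letters. Among the 7 of the 15 lowest genes with a window, 1 held the STAT letters (Ifitm3), 1 the NF-kB letters (Tifa) and 1 the CRE letters (1700066M21Rik). A match describes letters in a window and shows no binding.

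The counts per cell showed that the abundant genes were higher over a large share of the B cells. After thinning to 2000 UMIs, Samsn1 had at least 3 UMIs in 17.3% of KO day 4 cells and 0.619% of KO day 0 cells, and none in 48.7% of KO day 4 and 83.9% of KO day 0 cells. Any Samsn1 UMI was found in 51.3% of KO day 4 and 16.1% of KO day 0 cells, or 70.5% of day 4 and 34.8% of day 0 cells unthinned. T cells of the T library also express the gene, with a UMI in 24.1% of KO day 4 and 16.2% of KO day 0 T cells. Cd83 had a UMI in 47.9% of thinned KO day 4 cells and 22.1% of thinned KO day 0 cells (70.8% at day 4 and 40.2% at day 0 unthinned), and at least 3 UMIs in 10.3% at day 4 and 1.959% at day 0. For a gene of another lineage, Cd3d, the share with a UMI was 0.410% at KO day 4 and 0.611% at KO day 0. The control pools had close to the same distribution of Samsn1, with at least 3 UMIs in 14.8% of day 4 and 0.654% of day 0 cells.

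**Figure D2:**
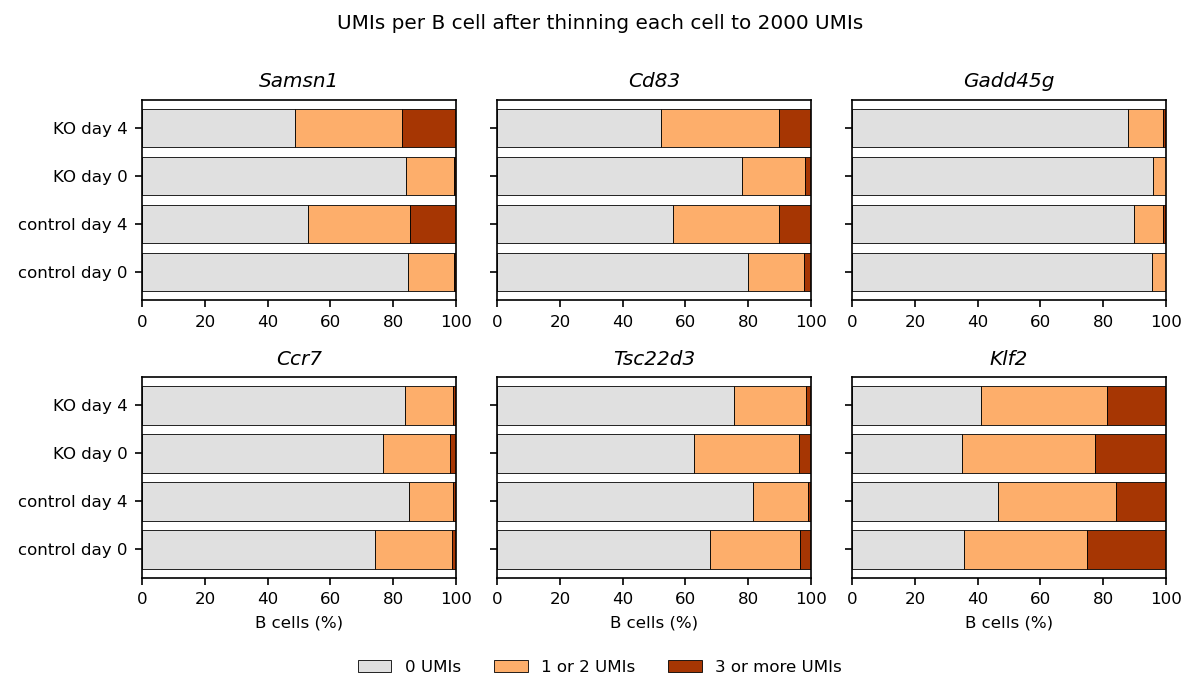
Share of B cells (%, x axis) with 0, 1 or 2, or at least 3 UMIs of each of 6 genes after every cell was thinned to 2000 UMIs, in the 4 pools. Cells with at least 3 Samsn1 UMIs make up 17.3% of KO day 4 and 0.619% of KO day 0 cells, while for Ccr7 and Tsc22d3 the grey part with no UMI is wider at day 4 in both genotypes.

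Not every activation gene was higher. In the list of activation surface molecules and signalling limits, 10 of 18 counted members were above 1 and 5 were 1.5-fold higher, with a median log2 ratio of 0.06. Cd69, an early activation marker that holds cells in lymphoid tissue, stood at 95.2 CPM at KO day 4 and 75.9 CPM at KO day 0 (1.25, 1.13 to 1.40), where the control ratio was 0.913. The costimulatory ligands Cd86, at 28.8 CPM at day 4 and 28.5 CPM at day 0 (1.01), and Cd80, at 2.73 CPM at day 4 and 2.08 CPM at day 0 (1.31, 0.672 to 2.75), did not stand apart from 1. Nfkbid, an atypical inhibitor of the NF-kB family, was lower, with 36.5 CPM at KO day 4 and 59.5 CPM at KO day 0 (0.614, 0.534 to 0.705).

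Genes that antigen receptor signalling induces within hours did not lie on one side of day 0. Of 10 counted genes of the EGR and NR4A list, which also holds IER and DUSP genes, 3 were above 1 with a median log2 ratio of -0.30, and within follicular-like cells 4 of 10 with -0.16. Of the AP-1 genes, 5 of 9 were above 1 (median 0.01), and 6 of 8 within follicular-like cells (0.26). Egr1, an early response transcription factor, was at 26.6 CPM at KO day 4 and 23.3 CPM at KO day 0 over all B cells (1.14, 0.937 to 1.40, and 1.91 under the stricter hashtag filter). Its ratio differed by gate, at 3.83 (2.64 to 5.73) in follicular-like and 0.185 (0.0981 to 0.331) in marginal zone-like cells. Nr4a1, an orphan nuclear receptor, had a ratio of 1.04 (0.811 to 1.34) over all B cells and 1.44 (1.05 to 2.01) in follicular-like cells. Egr3 was at 19.5 CPM at KO day 4 and 30.4 CPM at KO day 0 (0.643), and Nab2, a corepressor of EGR proteins, had a ratio of 0.644. Egr2, which restrains lymphocyte activation, went the other way, with 8.75 CPM at day 4 and 3.30 CPM at day 0 (2.65, 1.63 to 4.55), against 1.30 in control. Of 15 NF-kB subunits and inhibitors, 5 were above 1 (median log2 -0.08), among them Bcl3 (1.18), while the inhibitors Nfkbia (222 CPM at day 4 and 276 CPM at day 0, 0.804) and Nfkbie (0.849) were lower.

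Downstream of the IL-2 receptor, the kinase and STAT genes were near their day 0 levels. Jak3, the kinase bound to the common gamma chain, was the exception with 37.5 CPM at KO day 4 and 26.2 CPM at KO day 0 (1.43, 1.19 to 1.72). Stat5a (0.859), Stat5b (1.05) and Stat3 (1.10) had intervals that include 1. In all, 5 of 11 JAK and STAT genes were above 1, with a median log2 ratio of -0.04.

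Genes known to respond to STAT5 in lymphocytes were split, with 5 of 12 counted members above 1 and a median log2 ratio of -0.10. Socs3 and Socs1 were the 2 that were 1.5-fold higher. Bcl6, the repressor that directs the germinal center program, was at 66.2 CPM at KO day 4 and 46.2 CPM at KO day 0 (1.43, 1.25 to 1.65). Myc, the growth regulator, was at 82.3 CPM at day 4 and 62.0 CPM at day 0 (1.33, 1.18 to 1.498), and the kinase Pim1 at 64.9 CPM at day 4 and 52.3 CPM at day 0 (1.24). On the lower side were Bcl2, which protects from apoptosis, at 84.7 CPM at day 4 and 118 CPM at day 0 (0.717, 0.652 to 0.788), and Gimap6, a GTPase of lymphocyte survival, at 397 CPM at day 4 and 492 CPM at day 0 (0.807). The control ratios were 1.20 for Bcl6, 1.01 for Myc, 0.714 for Bcl2 and 0.747 for Gimap6.

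Other cytokine receptors were mostly lower, 4 of 15 above 1 with a median log2 ratio of -0.21. Il5ra, the alpha chain of the interleukin-5 receptor, was at 13.9 CPM at KO day 4 and 24.3 CPM at KO day 0 (0.570, 0.457 to 0.713). Il10ra had a ratio of 0.715, Ifnar1 one of 0.717 and Ifngr1, with 57.7 CPM at day 4 and 76.4 CPM at day 0, one of 0.755. Il6ra (1.17) had an interval that includes 1.

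Genes of growth and biosynthesis were higher across whole lists, by small amounts. In the list of MYC targets and ribosome biogenesis, 19 of 20 members were above 1, with a median log2 ratio of 0.31. Srm, which makes spermidine, was at 67.2 CPM at KO day 4 and 42.5 CPM at KO day 0 (1.58, 1.37 to 1.83), the ribosome assembly factor Nop58 at 118 CPM at day 4 and 79.3 CPM at day 0 (1.48), and the nucleolar proteins Ncl at 520 CPM at day 4 and 399 CPM at day 0 (1.30) and Npm1 at 918 CPM at day 4 and 738 CPM at day 0 (1.24). All 16 counted genes of nucleotide synthesis and one-carbon metabolism were above 1 (median 0.32), led by Tyms, thymidylate synthase, at 14.8 CPM at day 4 and 3.82 CPM at day 0 (3.87, 2.49 to 6.30, but 1.84 after thinning), and Rrm2, a ribonucleotide reductase subunit, at 28.8 CPM at day 4 and 11.6 CPM at day 0 (2.47). Over all genes counted, 44.6% were above 1, so these shares stood well above the background share.

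Sterol genes formed a second such group. Of 18 genes of cholesterol synthesis and uptake, 16 were above 1 and 6 were 1.5-fold higher, with a median log2 ratio of 0.43. Idi1, an early enzyme of isoprenoid synthesis, was at 48.9 CPM at day 4 and 27.1 CPM at day 0 (1.80), and the enzymes Sqle (1.57), Cyp51 (1.57) and Fdps (1.55) followed. Abca1, which exports cholesterol from the cell, was the 1 member at least 1.5-fold lower, at 25.5 CPM at day 4 and 40.3 CPM at day 0 (0.633, 0.535 to 0.749). Control B cells had 15 of 18 above 1, with a median of 0.70 and Abca1 at 0.387.

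Chaperones of protein folding were higher too. Among secretory pathway and unfolded protein response genes, 16 of 21 were above 1 and 7 were 1.5-fold higher (median log2 0.29). Hsp90b1, a chaperone of the endoplasmic reticulum, was at 676 CPM at KO day 4 and 332 CPM at KO day 0 (2.04, 1.94 to 2.14), Sdf2l1 at 82.3 CPM at day 4 and 41.5 CPM at day 0 (1.98), and Hspa5 at 358 CPM at day 4 and 237 CPM at day 0 (1.51). The stress transcription factors Atf4 (0.951) and Ddit3 (0.942) had intervals that include 1. Within follicular-like cells, the gate of mature recirculating B cells described below, the ratio of Hsp90b1 was 1.54. There the list had 18 of 21 members above 1 in KO (median 0.28) and 12 of 21 in control (0.02). Over all control B cells it had 18 of 21 (0.34). After thinning, an Hsp90b1 UMI was found in 51.9% of KO day 4 and 40.8% of KO day 0 cells. In control the shares were 45.3% at day 4 and 50.9% at day 0. In the cytosol, 7 of 9 heat shock chaperones were above 1 (median 0.39), among them Hsph1 (1.62), Hspd1 (1.41) and Hsp90ab1, at 1620 CPM at day 4 and 1236 CPM at day 0 (1.31).

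Energy metabolism differed less. Oxidative phosphorylation had 19 of 21 members above 1 with a median log2 ratio of 0.12, and glycolysis 10 of 16 with a median of 0.12. Ldha, lactate dehydrogenase, was at 252.5 CPM at KO day 4 and 185.7 CPM at KO day 0 (1.36), and Gapdh at 1039 CPM at day 4 and 805 CPM at day 0 (1.29), while the glucose transporter Slc2a3 had a ratio of 0.661 (0.390 after thinning). Translation factors had 12 of 13 members above 1 (median 0.18), such as the helicase Eif4a1 at 1.26, with the translation repressor Eif4ebp1 lower at 0.818. Cytosolic ribosomal proteins were near 1 (18 of 22 above, median 0.03). Amino acid transport and stress response genes were lower, 3 of 12 above 1 with a median of -0.26, such as Slc3a2 (0.739) and Sesn1 (0.744).

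**Figure D3:**
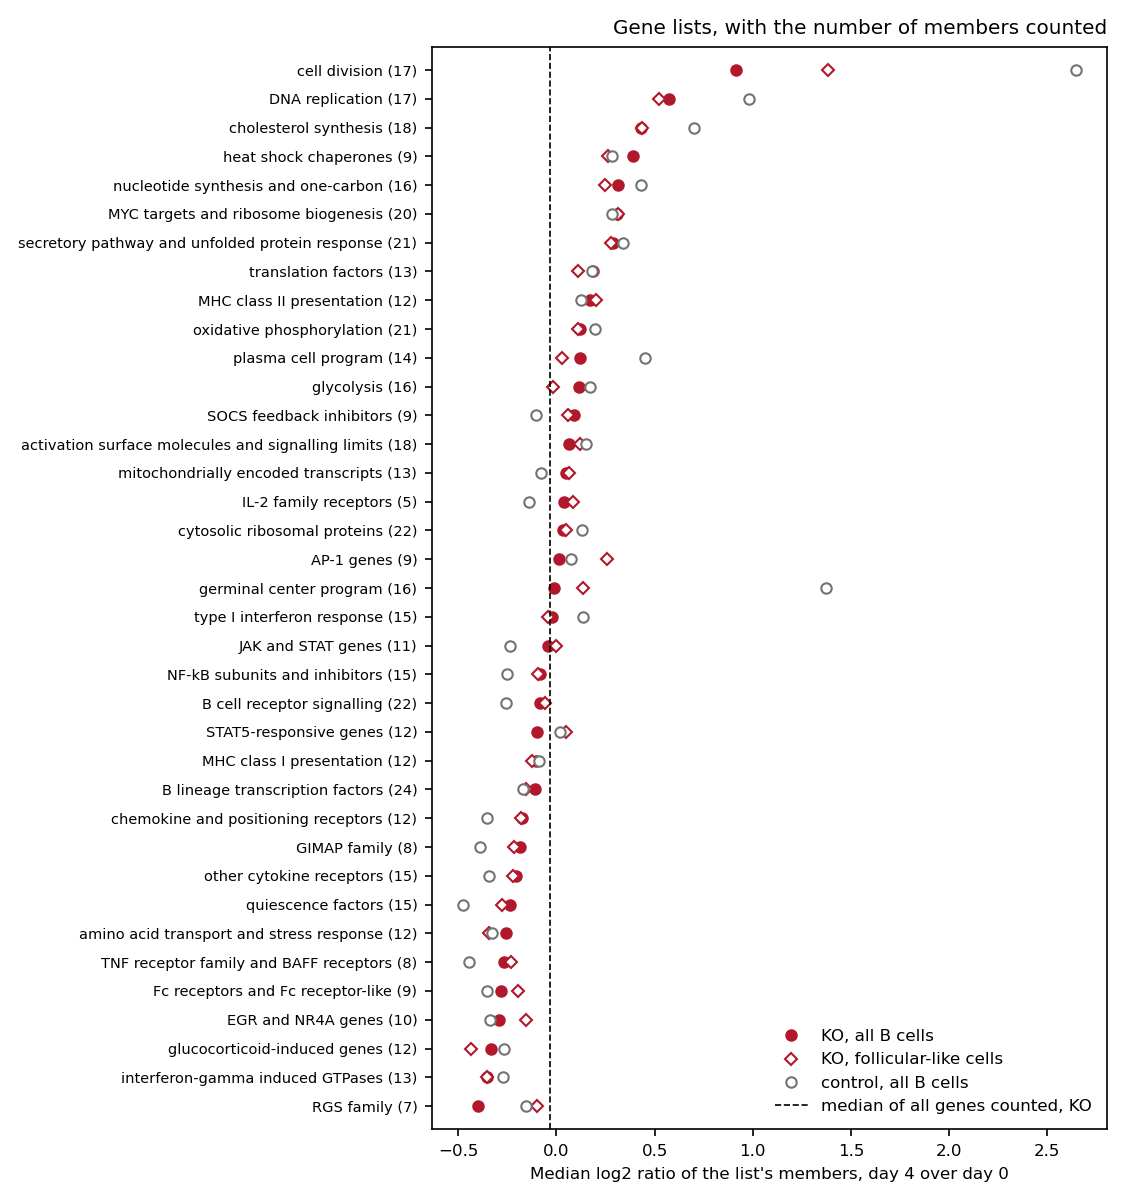
Median log2 ratio of CPM, day 4 over day 0, over the counted members of each of 37 gene lists (number of members in brackets) in all KO B cells (filled red), KO follicular-like cells (open red) and all control B cells (open grey), with the median of all genes counted in KO as a dashed line. Cell division (0.91 in KO and 2.65 in control) is at the top, and quiescence factors, TNF family receptors and interferon-gamma induced GTPases lie left of the dashed line in all 3.

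Division genes were higher over the whole list. All 17 counted cell division genes were above 1 and 16 were 1.5-fold higher (median log2 0.91), and all 17 DNA replication genes were above 1 with 8 of them 1.5-fold higher (median 0.58). Cdk1, the kinase that starts mitosis, was at 17.2 CPM at KO day 4 and 5.56 CPM at KO day 0 (3.09, 2.13 to 4.61, and 4.97 without the cells above the 99th percentile of UMIs), Mki67, a protein of dividing nuclei, at 76.5 CPM at day 4 and 45.5 CPM at day 0 (1.68, 1.47 to 1.93), and Pclaf, a partner of the replication clamp, at 84.9 CPM at day 4 and 32.1 CPM at day 0 (2.64). Without cells holding at least 2 UMIs of other lineages' markers, the ratio fell to 2.13 for Cdk1, 2.94 for Tyms and 2.05 for Hist1h1a. That of Ube2c fell from 2.40 to 1.44. By gate (described below), Cdk1 had ratios of 3.91 in follicular-like, 3.83 in plasma-like and 1.06 (0.616 to 1.92) in germinal center-like cells. Plasma-like cells held 68 of its 245 day 4 UMIs. The control ratios were larger, 14.2 for Cdk1, 7.25 for Mki67 and 15.7 for Pclaf, a difference between genotypes that was not tested.

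Counted by cell, 48 of 1935 thinned KO day 4 cells had at least 2 of the 17 division genes (2.48%, 1.84 to 3.28), against 9 of 970 KO day 0 cells (0.928%, 0.425 to 1.75). Without thinning the shares were 5.08% at KO day 4 and 2.14% at KO day 0. Of the 48 day 4 cells, 17 were follicular-like, 14 germinal center-like, 6 plasma-like and 6 in no gate. Of the 9 day 0 cells, 5 were germinal center-like and 2 follicular-like. The control pools had 43 of 1476 cells at day 4 (2.91%) and 9 of 1070 at day 0 (0.841%).

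The lower genes included factors that keep lymphocytes at rest. None of the 15 counted quiescence factors was above 1, with a median log2 ratio of -0.24. Klf2, which maintains quiescence and recirculation, was at 547 CPM at KO day 4 and 644 CPM at KO day 0 (0.850, 0.818 to 0.884). By gate, described below, Klf2 was lower in follicular-like cells (0.848). It was higher in germinal center-like (2.61, 1.54 to 4.71) and plasma-like cells (3.06, 1.43 to 7.82), with 16 and 7 UMIs at day 0. Txnip, which limits glucose uptake, was at 165 CPM at day 4 and 242 CPM at day 0 (0.682, 0.638 to 0.730), the antiproliferative Btg2 at 132 CPM at day 4 and 176 CPM at day 0 (0.751), Btg1 at 1017 CPM at day 4 and 1201 CPM at day 0 (0.847) and Tob1 at 9.59 CPM at day 4 and 17.7 CPM at day 0 (0.542), and the cyclin kinase inhibitor Cdkn1b had a ratio of 0.791. Most of these differences were of modest size and covered abundant genes. The control list had 1 of 15 above 1 and a median of -0.48.

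Receptors that place B cells in the spleen differed in both directions. Of 12 chemokine and positioning receptors, 4 were above 1 (median log2 -0.17). Ccr7, which draws cells toward the T cell zone, was at 83.9 CPM at KO day 4 and 144 CPM at KO day 0 (0.583, 0.533 to 0.637). Cxcr4, which guides cells toward CXCL12, was at 22.7 CPM at day 4 and 40.6 CPM at day 0 (0.558, 0.470 to 0.663). Gpr183, the oxysterol receptor that guides B cells to the outer follicle, was higher at 218 CPM at day 4 and 133 CPM at day 0 (1.64, 1.51 to 1.78), as was Ccr6 at 113.5 CPM at day 4 and 89.4 CPM at day 0 (1.27). S1pr1, the exit receptor, was at 150 CPM at day 4 and 168.5 CPM at day 0 (0.891). A Ccr7 UMI was found in 16.4% of thinned KO day 4 and 23.3% of thinned KO day 0 cells (36.2% at day 4 and 44.3% at day 0 unthinned).

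Genes that glucocorticoids are known to induce were mostly lower. Of 12 counted, 3 were above 1 (median log2 -0.33). Tsc22d3, which encodes the glucocorticoid-induced leucine zipper, was at 124 CPM at KO day 4 and 225 CPM at KO day 0 (0.553, 0.515 to 0.595), with a UMI in 24.7% of thinned day 4 and 37.4% of thinned day 0 cells (48.1% at day 4 and 59.7% at day 0 unthinned). The kinase Sgk1 (0.562) and Ddit4 (0.716), an inhibitor of mTOR, were lower as well. Mt1, a metallothionein, was 1 of 2 members at least 1.5-fold higher, at 10.3 CPM at day 4 and 1.04 CPM at day 0 (9.88). Of its UMIs, 61.4% lay in 1 cell, and its ratio was 1.17 after thinning. Fkbp5 was at 1.31 with an interval that includes 1.

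Interferon genes split by type. None of 13 counted interferon-gamma induced GTPases and partners was above 1, with a median log2 ratio of -0.35. Irf1, a transcription factor that interferon-gamma induces, was at 66.4 CPM at KO day 4 and 94.6 CPM at KO day 0 (0.702, 0.631 to 0.781), Irgm1 at 58.7 CPM at day 4 and 75.9 CPM at day 0 (0.774) and Gbp2 at 10.9 CPM at day 4 and 16.3 CPM at day 0 (0.669). The Gbp genes are close copies and their counts are uncertain. The type I interferon response list stayed near the background, with 5 of 15 above 1 and a median of -0.02, such as Isg15 at 39.97 CPM at KO day 4 and 34.7 CPM at KO day 0 (1.15, 0.978 to 1.36).

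Survival and tissue-organizing genes of the TNF family were lower. None of 8 TNF receptor family and BAFF receptor genes was above 1 (median log2 -0.27). Ltb, a ligand that maintains splenic architecture, was at 616 CPM at KO day 4 and 865 CPM at KO day 0 (0.712, 0.688 to 0.738), Lta at 26.7 CPM at day 4 and 40.6 CPM at day 0 (0.658), and Tnfrsf13c, the receptor for the survival factor BAFF, at 220 CPM at day 4 and 274 CPM at day 0 (0.806). Of the cell death regulators, Bmf, which promotes apoptosis, was at 2.45 CPM at day 4 and 8.85 CPM at day 0 (0.277, 0.175 to 0.434), and Mcl1, which opposes it, at 413 CPM at day 4 and 492 CPM at day 0 (0.838). The near-identical Bcl2a1d (1.501) and Bcl2a1b (1.29) were higher, and how reads were split between them is uncertain.

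Next to Wfdc21 among the 15 lowest genes was Rgs2, which ends signalling through G protein-coupled receptors. It was at 9.87 CPM at KO day 4 and 30.4 CPM at KO day 0 (0.325, 0.258 to 0.408). In control B cells it was at 14.1 CPM at day 4 and 16.8 CPM at day 0 (0.839, 0.651 to 1.09), so the KO day 0 pool was the highest of the 4. T cells of the T library had 18.6 CPM at KO day 4, 29.0 CPM at KO day 0, 17.5 CPM at control day 4 and 22.0 CPM at control day 0, again highest in the KO day 0 pool. None of 7 counted RGS genes was above 1 in KO (median log2 -0.40), including Rgs14 (0.701).

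Several of the 15 lowest genes are better known in myeloid cells. Clec12a, an inhibitory lectin receptor, was at 8.19 CPM at KO day 4 and 17.9 CPM at KO day 0 (0.458), Lst1 at 15.8 CPM at day 4 and 33.5 CPM at day 0 (0.472), Ifitm3, an antiviral membrane protein, at 30.9 CPM at day 4 and 63.0 CPM at day 0 (0.491), and Wfdc21 at 3.01 CPM at day 4 and 13.2 CPM at day 0 (0.228, 0.153 to 0.336). Ifitm3 was found in only 4.41% of KO day 4 and 5.19% of KO day 0 cells, with 9.94% of its UMIs in 1 cell. Its ratio differed by gate (gates are described below), at 0.461 in follicular-like and 0.402 in marginal zone-like cells. In transitional-like cells it went the other way, with 112 UMIs at day 4 and 2 at day 0 (22.7, 6.15 to 190). Monocyte and macrophage markers were at 71.9 CPM in KO day 4 and 101.5 CPM in KO day 0. Cells with at least 2 UMIs of other lineages' markers made up 4.67% of KO day 4 and 3.67% of KO day 0 cells. Without these cells the ratios were 0.437 for Clec12a, 0.611 for Lst1, 0.512 for Ifitm3 and 0.236 for Wfdc21 in KO, and on the higher side 5.91 for Samsn1 and 13.4 for Nfil3. All 30 genes named by size kept their direction. After thinning, the ratio was 0.283 for Clec12a and 0.410 for Wfdc21. In control, the ratio without such cells was 0.337 (0.222 to 0.506) for Wfdc21 and 0.634 (0.465 to 0.866) for Ifitm3, against 2.42 for Wfdc21 and 1.93 for Ifitm3 with them.

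The predicted genes Gm47283 (29.5 CPM at KO day 4 and 72.2 CPM at KO day 0, 0.408) and Gm21887 (29.7 CPM at day 4 and 66.3 CPM at day 0, 0.448) are near-identical copies at the pseudoautosomal end of the sex chromosomes, so their counts are uncertain. The others of the 15 lowest were Krt222 (0.410, or 0.752 after thinning), Adssl1 (0.442), Gm47730 (0.456), the scaffold protein Akap12 (0.462), 1700066M21Rik (0.468), Plpp3 (0.484), the NF-kB adaptor Tifa (0.494) and Psd3 (0.496). Of these, Gm47730 (0.437), Akap12 (0.411) and Psd3 (0.490) had nearly the same ratio in control.

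Of the genes of antigen presentation, those of MHC class II were mostly higher and those of class I mostly lower. Of 12 counted class II genes, 10 were above 1, with a median log2 ratio of 0.17, against 3 of 12 class I genes with a median of -0.11. Ifi30, a thiol reductase that prepares antigen for class II, was at 726.5 CPM at KO day 4 and 454 CPM at KO day 0 (1.60, 1.53 to 1.67). Ciita, the master activator of class II genes, was at 259.5 CPM at day 4 and 183 CPM at day 0 (1.42), and H2-Ab1, a class II chain, at 3579 CPM at day 4 and 3111 CPM at day 0 (1.15). H2-DMb1 (1.43) and H2-DMb2 (1.24), chains of the peptide exchange factor, are close copies and uncertain. The class I chains H2-K1 (1780 CPM at day 4 and 2005 CPM at day 0, 0.888) and H2-D1 (1591 CPM at day 4 and 1741 CPM at day 0, 0.914) were slightly lower.

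Genes of B cell receptor signalling were mostly a little lower, 4 of 22 above 1 with a median log2 ratio of -0.09. The kinase Syk was at 237 CPM at KO day 4 and 299 CPM at KO day 0 (0.792), and the coreceptor Cd72 had a ratio of 0.819. Cd22, an inhibitory coreceptor, was higher at 350 CPM at day 4 and 290 CPM at day 0 (1.21). Of 24 B lineage transcription factors 9 were above 1 (median -0.11): Irf8 (1.16), Bcl11a (1.17) and Ikzf1 (1.16) were above day 0, and Ebf1 at 773 CPM at day 4 and 935 CPM at day 0 (0.827), Spib (0.762), Id3 (0.781) and Tcf3 (0.798) were below it. Fcmr, the receptor for IgM, was lower at 681 CPM at day 4 and 877 CPM at day 0 (0.777), in a list of Fc receptors with 1 of 9 above 1.

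The B cells were then gated by fixed marker genes, in order: plasma-like (at least 3 of 6 genes such as Sdc1 and Prdm1), germinal center-like (at least 2 of 7 such as Mef2b and S1pr2), transitional-like (Cd93), marginal zone-like (at least 2 of 6 such as Cd1d1 and S1pr3, no Fcer2a), B1-like (at least 2 of 7 such as Bhlhe41 and Zbtb32, no Fcer2a) and follicular-like (Fcer2a). Some markers held out of the gates were highest in the gate of that name, such as Cr2 at 757 CPM in marginal zone-like, Myb at 137 CPM in transitional-like, Ahnak at 346 CPM in B1-like, Basp1 at 350 CPM in germinal center-like and Xbp1 at 1032 CPM in plasma-like cells. Others were not: Zcwpw1 did not mark B1-like cells, and plasma-like cells had more Cd24a than transitional-like cells (595 and 480 CPM) and more Eaf2 (207 and 160 CPM) and Mki67 (630 and 611 CPM) than germinal center-like cells. Gate genes are no result inside or between the gates.

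Follicular-like cells made up 1523 of 1950 KO day 4 cells (78.1%) and 724 of 982 KO day 0 cells (73.7%), a ratio of shares of 1.06. The difference was 4.38 percentage points (1.11 to 7.73, Newcombe interval), and after thinning the shares were 58.8% at KO day 4 and 54.5% at KO day 0, a difference of 4.28 points (0.461 to 8.10). In control it was 0.912 points (-2.46 to 4.33). Marginal zone-like cells were 107 (5.49%) at KO day 4 and 66 (6.72%) at KO day 0, a ratio of 0.816 (0.595 to 1.13). Germinal center-like cells were 29 (1.49%) at KO day 4 and 11 (1.12%) at KO day 0, and plasma-like cells 14 (0.718%) at KO day 4 and 6 (0.611%) at KO day 0, with intervals of the ratio that include 1. Transitional-like cells were 54 at KO day 4 and 30 at KO day 0, and B1-like cells 18 at KO day 4 and 4 at KO day 0. Cells in no gate were 10.5% at KO day 4 and 14.4% at KO day 0 (0.732, 0.588 to 0.914), and after thinning 35.8% at KO day 4 and 39.1% at KO day 0 (0.915), a difference of -3.31 points (-7.06 to 0.405) at equal depth. For the other 5 gates the interval of the thinned difference included 0, and these counts are small.

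**Figure D4:**
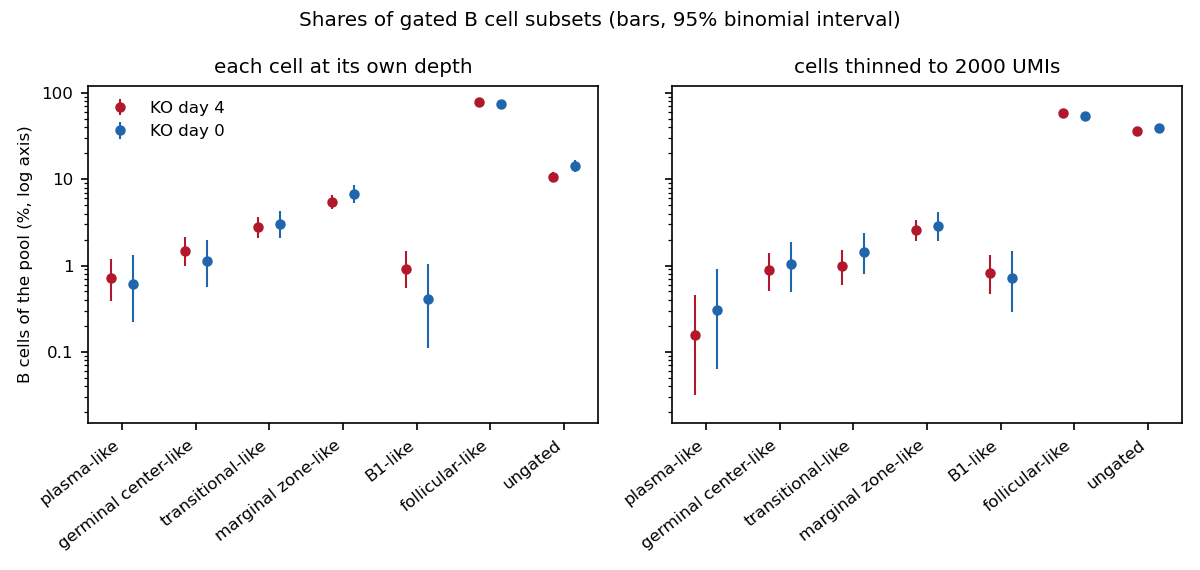
Share of KO B cells in each gate (%, log axis) at day 4 (red, left) and day 0 (blue, right) with 95% binomial intervals, from each cell at its own depth and after thinning every cell to 2000 UMIs. Follicular-like cells hold 78.1% at day 4 and 73.7% at day 0 at their own depth, and in the thinned panel the day 4 and day 0 intervals overlap in every gate and for cells in no gate.

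Within follicular-like cells, 318 of 9673 genes were 1.5-fold higher (3.29%) and 335 were lower (3.46%). Lifr was at 25.5 CPM at KO day 4 and 1.48 CPM at KO day 0 (17.2, 7.79 to 47.2), Nfil3 at 10.5 CPM at day 4 and 0.742 CPM at day 0 (14.2), Samsn1 at 640 CPM at day 4 and 107 CPM at day 0 (5.99, 5.44 to 6.62), and Rmi2 (8.94), the DNA repair ATPase Fignl1 (5.42) and Kcnk13 (5.26) completed the highest 6. The lowest 6 were Gm16867, Bmf (0.272), Rgs2 (6.30 CPM at day 4 and 22.7 CPM at day 0, 0.277), Amigo2 (0.345), Gm31243 (0.351) and Zfp383 (0.353). Of the lists above, quiescence factors had 0 of 14 above 1 (median -0.28), cholesterol synthesis 15 of 18 (0.43), ribosome biogenesis 19 of 20 (0.31), MHC class II 11 of 12 (0.20) and cell division 15 of 15 (1.38). Other lists differed from the whole pool: secretory pathway genes 1.5-fold higher numbered 2 here and 7 over all B cells, glycolysis had 7 of 15 above 1 (median -0.02, against 0.12 over all B cells), and the germinal center program 7 of 9 (0.13, against -0.01 over all B cells). After thinning, over all B cells, the ratio was 1.30 for Fignl1 (2.20 before), 0.794 for Amigo2 (0.492 before), 0.273 for Gm31243 (0.507 before) and 0.645 for Zfp383 (0.403 before).

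Gm16867, on chr14:69363504-69503362, was high in 1 pool, KO day 0, in both libraries. It had 3 UMIs in KO day 4 B cells (0.210 CPM) and 79 UMIs in KO day 0 B cells (13.7 CPM), against 0.0856 CPM at control day 4 and 0.337 CPM at control day 0. In T cells of the T library it was at 0.0443 CPM at KO day 4 and 3.47 CPM at KO day 0, with 0 UMIs in both control pools. With 1 pool per day, a trait of the mice in the KO day 0 pool other than the day, genetic background included, cannot be told apart from the day in any ratio given here.

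In marginal zone-like cells, 107 at KO day 4 and 66 at KO day 0, Samsn1 was at 187 CPM at day 4 and 81.0 CPM at day 0 (2.31, 1.68 to 3.24), a smaller ratio than in follicular-like cells. Cd83 was at 211 CPM at day 4 and 72.5 CPM at day 0 (2.91), and Il4i1 at 120 CPM at day 4 and 47.2 CPM at day 0 (2.55). Rgs2 (0.360), Ccr7 (0.587) and Tsc22d3 (0.523) were lower there too. All 12 MHC class II genes and all 17 counted ribosome biogenesis genes were above 1. Other lists differed from the whole pool: 6 of 8 GIMAP genes were above 1 (1 of 8 over all B cells), 4 of 11 quiescence factors (0 of 15 over all B cells) and 6 of 22 cytosolic ribosomal proteins (18 of 22 over all B cells), and Klf2 (1.16) and Cd69 (0.789) had intervals that include 1. In transitional-like cells Samsn1 was at 483 CPM at day 4 and 74.7 CPM at day 0 (6.47, 3.77 to 12.0).

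Genes of the germinal center program were split over all B cells, with 8 of 16 members above 1 and a median log2 ratio of -0.01, where control had 12 of 16 and 1.37. Mybl1 was at 4.55 CPM at KO day 4 and 7.64 CPM at KO day 0 (0.596) and Rgs13 at 7.28 CPM at day 4 and 11.6 CPM at day 0 (0.626). These genes lie in few cells: KO day 0 held 11 germinal center-like cells and control day 0 held 0. Thinning each cell to 2000 UMIs turned the ratio of Mybl1 (1.504) above 1 and gave 0.376 for Rgs13.

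For antibody secretion, 10 of 14 plasma cell program genes were above 1 (median log2 0.12). Xbp1, which expands the secretory apparatus, was at 143 CPM at KO day 4 and 86.1 CPM at KO day 0 (1.66, 1.502 to 1.83), and Jchain, which joins IgM and IgA units, at 493 CPM at day 4 and 885 CPM at day 0 (0.558). Without the 14 plasma-like cells of day 4 and the 6 of day 0, 5 of the 14 genes were above 1, so that list's count rests on those cells. Xbp1 was above day 0 in follicular-like cells as well, with a ratio of 1.92. Ighm, the IgM heavy chain, was at 1301 CPM at day 4 and 1894 CPM at day 0 (0.687), with 19.1% of its day 0 UMIs in 1 cell.

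Cells with a switched isotype, called from at least 10 UMIs of IgG, IgA or IgE constant genes, were 28 of 1950 at KO day 4 (1.44%, 0.956 to 2.07) and 2 of 982 at KO day 0 (0.204%, 0.0247 to 0.734). Of the 28, 11 were germinal center-like, 7 plasma-like, 5 follicular-like, 3 B1-like and 2 marginal zone-like. The control pools had 37 of 1487 (2.49%) at day 4 and 8 of 1101 (0.727%) at day 0. The call was made at each cell's own depth, with a median of 5851 UMIs at KO day 4 and 4952 at KO day 0. In plasma-like cells the median was 34704 at KO day 4 and 11863 at KO day 0. How far depth entered the shares of switched cells was not tested. Summed isotype levels are not compared, since 1 cell gave 86.4% of the Ighg1 and 67.6% of the Ighg2b UMIs of KO day 4.

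Finally, the follicular-like KO cells were divided by their Samsn1 UMIs per 2000, a gene picked for the size of its ratio, so the split is a description. It gave 299 day 4 cells with at least 3 UMIs, 528 with 1 or 2 and 683 with 0, which were set beside the 604 day 0 cells with 0. A further 112 day 0 cells had 1 or 2 UMIs and 2 had at least 3. The count of 0 is after thinning and does not mark cells that lack the gene: at full depth the lowest day 4 class held 779 Samsn1 UMIs (165 CPM), 2.59 times (2.22 to 3.02) the 63.9 CPM of the day 0 cells. Cd83 stood at 855, 537.5 and 279 CPM in the 3 day 4 classes and at 144 CPM in the day 0 cells. Socs1 stood at 92.5, 54.9 and 24.2 CPM and at 10.1 CPM, and Lifr at 45.5, 25.7 and 17.0 CPM and at 1.78 CPM. In the 112 day 0 cells with 1 or 2 UMIs, Cd83 stood at 187 CPM, Socs1 at 18.25 CPM and Lifr at 0 CPM. The lowest day 4 class had Cd83 at 1.93 times, Il4i1 at 1.80 times, Socs1 at 2.39 times and Lifr at 9.52 times the day 0 level.

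Lower genes followed no single order along these classes. Ccr7 stood at 45.0, 72.9 and 124 CPM from the highest to the lowest Samsn1 class of day 4 and at 167 CPM in the day 0 cells, and Tsc22d3 at 98.0, 108 and 177 CPM and at 256 CPM. In the day 0 cells with 1 or 2 Samsn1 UMIs, Ccr7 stood at 115.6 CPM and Tsc22d3 at 220.5 CPM. Klf2 stood at 543, 505 and 694 CPM and at 711 CPM. Rgs2 was at 5.50, 5.39 and 7.42 CPM and at 20.8 CPM, Gm47283 at 28.5, 27.7 and 28.2 CPM and at 66.9 CPM, Btg1 at 1253, 1100 and 1011 CPM and at 1246 CPM, and Ifitm3 at 37.0, 26.4 and 18.2 CPM and at 38.04 CPM. Ifitm3 stood at 135.4 CPM in the day 0 cells with 1 or 2 Samsn1 UMIs. Bcl6 was 2.30 times the day 0 level in the highest class and 1.21 times (0.984 to 1.49) in the lowest day 4 class, and Hmgcs1 2.56 times and 1.18 times (0.894 to 1.58).

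Against the day 0 cells, 3.77% of 7941 genes were 1.5-fold higher and 9.52% lower in the highest Samsn1 class, and 2.97% of 8836 higher and 2.83% lower in the lowest day 4 class. The median log2 ratio was 0.96 in the highest class and 0.28 in the lowest for cholesterol synthesis, -0.58 and -0.15 for quiescence factors, 0.37 and 0.07 for MHC class II, -0.61 and -0.09 for interferon-gamma induced GTPases and 0.54 and -0.03 for STAT5-responsive genes. Ribosome biogenesis differed less between the classes, at 0.35 and 0.21. The type I interferon list had 1 of 10 members above 1 in the highest class (median -0.40) and 10 of 13 in the lowest (0.23). The highest class summed 2000398 UMIs and the lowest 4714530 UMIs, so counting error was larger in the highest class.

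**Figure D5:**
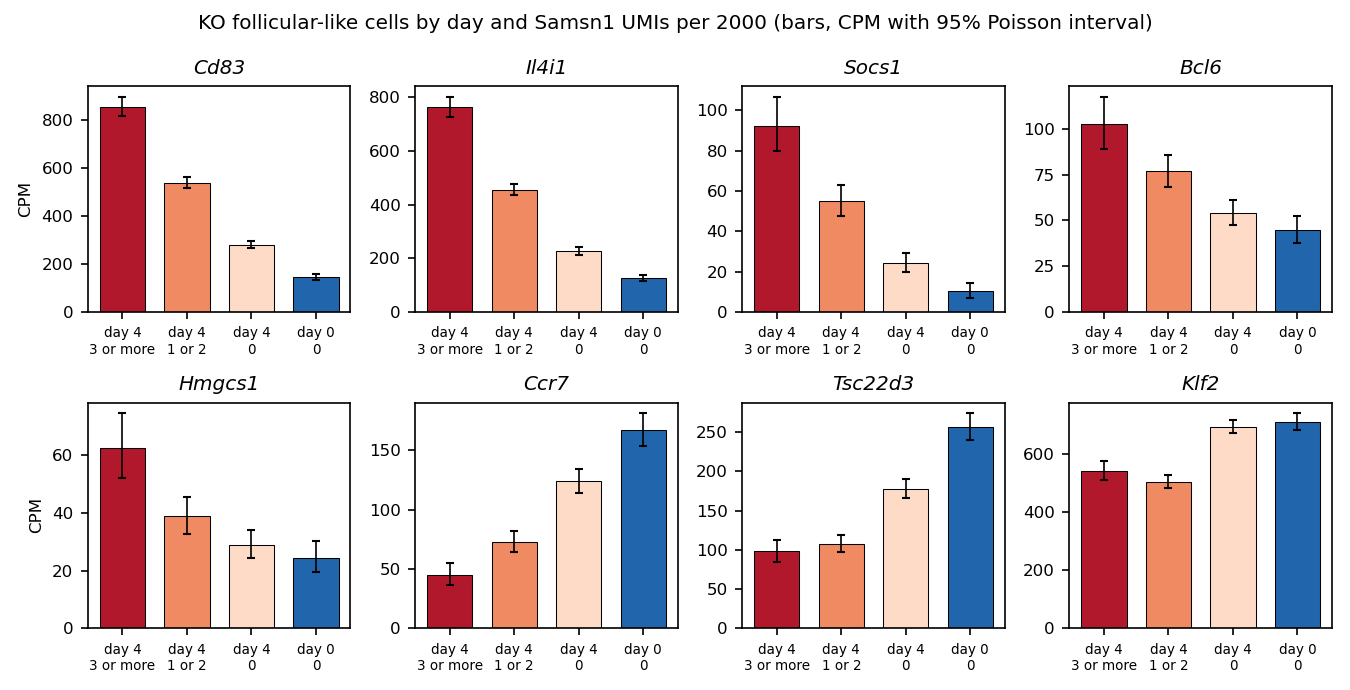
CPM of 8 genes in KO follicular-like cells, by day and by Samsn1 UMIs per 2000, as bars from 0 with 95% Poisson intervals. Cd83, Il4i1, Socs1, Bcl6 and Hmgcs1 are highest in the 299 day 4 cells with at least 3 Samsn1 UMIs and lowest in the 604 day 0 cells with 0 after thinning, while Ccr7 and Tsc22d3 run the other way.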

How the data were processed

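The deposited matrices hold counts of UMIs per gene and cell for 2 RNA libraries and, from the same barcodes, 4 hashtags. They were made with Cell Ranger 5.0.0 on mm10, per the submitters' processing notes, which name no annotation release. Gene positions came from GENCODE vM21 on that build (32158 of 32285 identifiers matched), and promoter windows from RefSeq on GRCm38.p6.

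Cells were kept by the filters given above: 6218 of 6339 B-library barcodes passed on genes and mitochondrial UMIs, and 5701 of these had 1 hashtag. Cells with several or no hashtags (517) were left out, and no doublet caller was run. Of the KO cells with 1 hashtag, 79 had no Cd79a. Median UMIs of the own and the next hashtag were 2570 and 150 at KO day 4 and 2215 and 150 at KO day 0. Of 29 KO B barcodes with 1 hashtag in the T library too, 9 had the same hashtag there.

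UMIs were summed per pool and scaled to counts per 1000000 (CPM). Levels have exact Poisson intervals, ratios conditional binomial intervals and shares exact Clopper-Pearson intervals, at 95%. The interval of a ratio of shares is too wide for common gates, so differences of shares with Newcombe intervals were added after the data were seen. The intervals of ratios were tested on simulated data. Such data cannot show how the intervals hold for real counts, where much of a gene's UMIs may lie in few cells. A gene was counted with at least 50 UMIs over both KO pools. No p-value was computed.

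Named genes were Il2rb, Il2ra and Il2rg, the 15 highest and 15 lowest ratios among genes with at least 100 UMIs over both KO pools, at most 10% of them in 1 cell, detection in 2% or more of cells in the higher pool and an interval that excludes 1 (2374 genes, without receptor variable genes), from each list the 4 highest and 3 lowest members at most, further members given for their value (some genes are not reported here), and the 6 highest and 6 lowest genes of a gate with at least 100 cells on both days. Il4i1, Bmf, Cd83 and the genes shown by Samsn1 class were also followed through the gates after their values were seen. The members, lists and markers were chosen with earlier results of these data known. Switched cells, dividing cells and Samsn1 classes were defined after the data were seen.

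Python 3.11.15, numpy 2.4.6, scipy 1.17.1, pandas 2.3.3 and matplotlib 3.10.9 were used, with edgeR 4.0.16 in R 4.3.3 for normalization factors only. In all, 14 alternatives were run: stricter hashtag, mitochondrial and gene filters, thinning to 2000 UMIs, cells left out, other totals and weights, other limits on UMIs and fold, and stricter gates.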

Additional observations from a re-analysis of the deposited data

Results flagged for a closer look

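Of the genes named above, 5 were flagged because the KO ratio, day 4 over day 0, and the control ratio lay on opposite sides of 1. Both counting intervals excluded 1. The 5 are no count over all genes counted. Of the 407 genes 1.5-fold higher in KO, 330 were also above 1 in control, and of the 369 lower ones 248 were also below 1. Over all genes counted the control median log2 ratio was -0.09, so a gene lay below 1 in control more often than not. With 1 pool each, the difference between genotypes was not tested. Wfdc21 had a ratio of 0.228 in KO and 2.42 in control, and Ifitm3 0.491 in KO and 1.93 in control. Both are also expressed by myeloid cells. Monocyte and macrophage markers summed to 71.9 CPM in KO day 4 and 101.5 CPM in KO day 0, and to 269 CPM in control day 4 and 50.9 CPM in control day 0. Neutrophil markers summed to 1.19 CPM in KO day 4 and 2.08 CPM in KO day 0, and to 1668 CPM in control day 4, with 55.7% of these UMIs in 1 cell, and 2.86 CPM in control day 0. Without cells holding at least 2 UMIs of other lineages' markers, the control ratio was 0.337 (0.222 to 0.506) for Wfdc21 and 0.634 (0.465 to 0.866) for Ifitm3, below 1 as in KO.

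The germinal center genes Mybl1 (0.596 in KO and 18.65 in control) and Rgs13 (0.626 in KO and 2.74 in control) were flagged in the same way, with control ratios of 8.08 for Mybl1 and 2.42 for Rgs13 without such cells. Germinal center-like cells were 29 at KO day 4 and 11 at KO day 0, against 32 at control day 4 and 0 at control day 0. Jchain had a ratio of 0.558 in KO and 1.26 in control, with plasma-like cells at 14 in KO day 4, 6 in KO day 0, 26 in control day 4 and 7 in control day 0.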

How the results depend on the processing

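No paired analysis was possible because each side is 1 pool. Of 1758 single-gene values under the alternatives, 1595 moved by less than the counting interval, 162 moved beyond it and 1 reversed: thinned to 2000 UMIs, the ratio of Mybl1 was 1.504. For 27 of 176 genes an alternative moved the ratio by over 1.5 times, in 23 of them thinning. Among genes whose interval included 1, thinning gave 0.627 for Il2ra (0.9746 before), 0.744 for Il6ra (1.17 before), 1.55 for Il6st (0.963 before) and 2.005 for Cd80 (1.31 before). The count of genes at least 1.5-fold higher (407) was 257 after thinning, 993 with at least 10 UMIs, 181 with at least 200 UMIs and 151 at a fold of 2. The count of lower genes (369) was 944, 121 and 83 under the last 3 of these. Thinning also gave a share ratio of 0.915 for cells in no gate and 5 lower Fc receptor genes (8 before). The plasma cell program had 4 members above 1 without the cells above the 99th percentile of UMIs, 5 without plasma-like cells and 5 with equal weight per cell, and the germinal center program had 5 members lower with equal weight (8 before). With 1 gene more per gate, the B1-like share ratio was 0.719 (2.27 before). Scaling by TMM factors moved log2 ratios by 0.055. Depth limits the rare gates, with 6 plasma-like and 4 B1-like cells at KO day 0.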

Other observations

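The predicted genes Gm47283 and Gm21887 were lower at day 4 in both libraries and both genotypes. In T cells of the T library, Gm47283 was at 57.3 CPM at KO day 4 and 156.7 CPM at KO day 0, and at 77.1 CPM at control day 4 and 145.2 CPM at control day 0. Gm21887 was at 10.1 CPM at KO day 4 and 21.5 CPM at KO day 0, and at 11.4 CPM at control day 4 and 25.2 CPM at control day 0.

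Of 69 immunoglobulin variable genes compared (33 heavy and 36 kappa, each used by at least 30 KO B cells), the 2 with a share whose interval of the ratio excluded 1 were Ighv1-78, in 1.72% of KO day 4 and 0.699% of KO day 0 cells (2.46, 1.01 to 7.22), and Igkv12-41, in 1.69% of KO day 4 and 0.639% of KO day 0 cells (2.65, 1.09 to 7.76). With 1 pool per day, a clone or a mouse cannot be told apart from the day. Nfil3 was above its day 0 level in T cells as well, at 3.64 CPM at KO day 4 and 1.39 CPM at KO day 0.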
